A study of Homo sapiens with 4 samples.

Results

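The comparison described here is the knockdown of CCDC137 in PLC/PRF/5 cells, a human hepatocellular carcinoma line, against PLC/PRF/5 control cells. Its members are the genes whose FPKM (fragments per kilobase of transcript, scaled to the mapped fragments of the library) reached 1 in either library, which gave 12300 of the 60612 genes listed. The control cells carried a control vector, and the knockdown cells stably carried a lentivirus with a guide RNA and an inactive Cas9 fused to the KRAB repressor domain. The study designed 2 guides against CCDC137, and the labels do not say which one was used for the sequenced library. The series also holds a pair of Huh-7 libraries, with an empty vector or with CCDC137 overexpressed, which are shown only beside the knockdown. There was 1 library per group, so that every difference below compares 2 libraries, carries no replicate check and has no error. Whether the cells were 1 clone or a pool is not given in the sources used here.

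CCDC137 is a coiled-coil protein of the nucleus that binds RNA, and this experiment asked how its loss alters the mRNAs of a liver cancer cell. An inactive Cas9 binds the DNA that its guide matches without cutting it. KRAB then recruits KAP1 and histone methyltransferases, which close the chromatin around the bound site. A gene whose start lies next to that of the target can therefore lie within reach of the same repressor.

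Differences are log2((FPKM + 1)/(FPKM + 1)), knockdown against control, and a gene past 2-fold has a difference of 1 or more in size on this scale. The added 1 makes the difference of weakly expressed genes smaller than their plain ratio. Folds are plain ratios of the 2 FPKM values and are given where both libraries were above 0. The number of reads behind the values is unknown.

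Both CCDC137 guides were matched to chromosome 17, which holds the gene, since they set which promoters the repressor could reach. Each matched it once, on the plus strand, inside the first exon of CCDC137. Whole guide sites on other chromosomes were not searched. The guides are shown as target sites in lower case, with the adjoining NGG motif that Cas9 needs (the PAM) in capitals, and the control guide as designed.
CCDC137 sgRNA-1: gagatggcgggagctggtcgCGG
CCDC137 sgRNA-2: gtcgcggagcagcggtgtccAGG
nontarget sgRNA: gcgggcagaacgaccctgac
In GRCh37 the first site covers chr17:79633794-79633813 and the second chr17:79633810-79633829, so that they share 4 bases. The window of 39 bases that holds both sites and their PAMs is printed next, with the CCDC137 start codon in capitals.
chr17:79633794-79633832: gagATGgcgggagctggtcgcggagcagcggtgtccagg
The first guide begins 3 bases before the start codon, and the second lies wholly within the coding sequence. In the RefSeq promoter table (GRCh38.p14, 250 bases before to 50 after the gene start) the first site occupies bases 278 to 297 of the CCDC137 window, shown in capitals, and the second lies beyond its end.
CCDC137 promoter, chr17:81666487-81666786, plus strand: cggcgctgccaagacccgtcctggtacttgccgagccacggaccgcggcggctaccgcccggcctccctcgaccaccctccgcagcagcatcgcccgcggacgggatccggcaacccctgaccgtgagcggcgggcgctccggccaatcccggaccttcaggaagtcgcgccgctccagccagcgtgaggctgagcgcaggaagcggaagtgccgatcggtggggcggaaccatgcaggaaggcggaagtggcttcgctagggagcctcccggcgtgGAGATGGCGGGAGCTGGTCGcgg

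CCDC137 was at 20.5 FPKM in the control and 0.771 in the knockdown library, 26.5-fold lower, with a log2 difference of -3.60. It had the third lowest difference among protein-coding genes at 5 FPKM or more, and the 2 below it were loci that share exons with other genes. In Huh-7 cells it was at 11.9 FPKM with the empty vector and 229.0 with overexpression, so that all 4 libraries followed their labels.

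OXLD1, a small gene transcribed away from CCDC137, starts 102 bases upstream of it. The first and second guide sites begin 129 and 145 bases upstream of the OXLD1 start. OXLD1 was at 3.06 FPKM in the control and 1.498 in the knockdown library, a difference of -0.70. It was also lower in Huh-7 cells with CCDC137 overexpression (2.85 and 1.67 FPKM). Whether the repressor reached OXLD1 was not tested. Beyond OXLD1 the levels were close in both libraries. NPLOC4, a cofactor of the p97 segregase, was at 18.6 and 16.4, and HGS, an endosomal sorting protein, at 10.8 and 10.6. FAAP100 of the Fanconi anaemia core complex was at 3.42 and 3.55, and ARL16, a small GTPase, at 3.32 and 3.70. The lncRNA AC139530 was at 2.98 and 3.66. Of 44 kept genes that start within 1000000 bases of CCDC137, 23 were higher and 21 lower, 0 were past 2-fold, and the median difference was 0.01. After OXLD1 the lowest was RAC3, at -0.40, and the highest was MAFG, at 0.25.

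**Figure D1:**
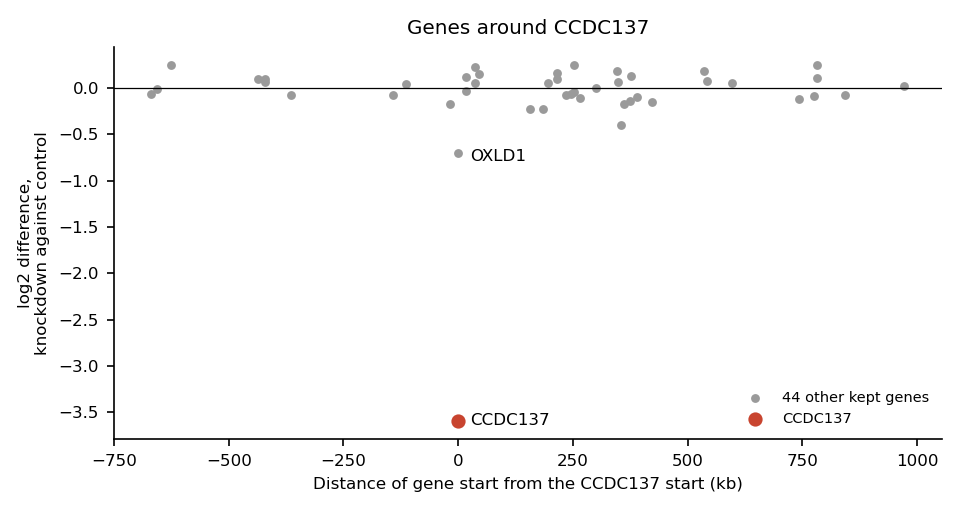
log2 difference of each kept gene around CCDC137 against the distance of its start from the CCDC137 start in kb (knockdown against control, 1 library each). CCDC137 lies at -3.60 and OXLD1 at -0.70, while the other 43 genes lie between -0.40 and 0.25.

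To see whether either guide had a similar site in another promoter, the 12 bases next to the PAM, followed by NGG, were searched on both strands of 35116 RefSeq promoters of 300 bases. These bases were GGGAGCTGGTCG for the first guide and GCAGCGGTGTCC for the second. Each was found in 2 promoters, or 0.0057% of them, and the bases of the control guide in 0. The kept genes among them were CCDC137 and OXLD1 alone, whose windows overlap. With the search loosened to 10 bases, the further kept genes were ECI1, LRCH4 and ACOT9. ECI1, an enzyme of fatty acid oxidation in mitochondria, was at 7.05 FPKM in control cells and 6.76 on knockdown. LRCH4 was at 3.39 and 3.06, and ACOT9, a mitochondrial acyl-CoA thioesterase, at 18.5 and 18.6. Such partial matches outside these windows were not searched.

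The control and knockdown libraries had the profile of a hepatoma line with little albumin. Of 11 hepatocyte markers, 10 reached 1 FPKM in either library, with APOB at 383.4 and 388.3 FPKM and KRT18 at 348.1 and 345.3. ALB, the main product of mature hepatocytes, was at 2.15 and 1.94, and TTR at 0.298 and 0.260. None of 6 fibroblast and 4 endothelial markers reached 1, and their summed levels went from 1.11 to 1.4 and from 0.894 to 1.02 FPKM. Of 6 leukocyte markers, PTPRC and CD3E were at 0 in both libraries. LYZ (128.7 and 206.3) and CD68 (38.2 and 43.8) alone reached 1 and raised that list's sum from 167.0 to 250.2 FPKM.

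Most genes were at nearly the same level in control and knockdown cells. The median difference of the 12300 genes was -0.01, the middle 50% of them lay between -0.11 and 0.10, and the first and 99th percentiles were -1.02 and 1.05. Past 2-fold were 148 higher genes (1.2%) and 135 lower genes (1.1%), 283 in all (2.3%). The nearest genes inside the higher limit were at 1.00 (LINC01670, listed at 0 in control and at 1.002 FPKM in knockdown cells), and just outside it STAG3L3 was at 1.21 and 3.41 FPKM. At the lower limit DENND10 (8.78 and 3.88) lay inside and TRAF3 (6.99 and 3.00) outside.

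The spread depended on the level. Among 418 genes with a mean of the 2 libraries below 1 FPKM, the middle 50% of the differences spanned 0.72 and 11.7% were past 2-fold. From 1 to 2 FPKM the span was 0.25 (2020 genes), from 10 to 20 it was 0.17 (1961 genes), and at 100 or more it was 0.16 (282 genes). The share past 2-fold lay between 1.38% and 2.48% in every range from 1 FPKM upward, so that large differences were not confined to weakly expressed genes. The 4 genes past 2-fold at 100 FPKM or more were all higher on knockdown. They were PFN1 and rows of the noncoding loci FP236383 and FP671120.

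**Figure D2:**
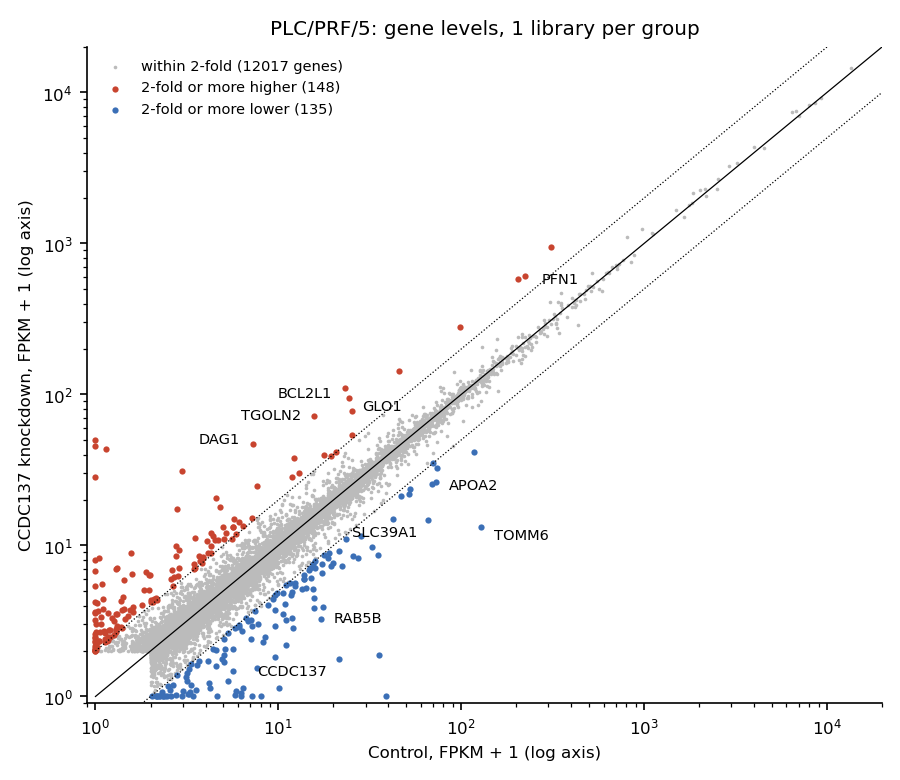
Level of each of the 12300 kept genes in control (x) and knockdown cells (y), as FPKM + 1 on log axes, with the line of equal levels solid and the 2-fold lines dotted. The 148 higher (red) and 135 lower genes (blue) stand outside a band of 12017 genes around equality.

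Many of the largest differences lay in loci where annotated genes share exons. In the annotation used here (GENCODE 44 lifted to GRCh37), 1004 kept genes (8.16%) shared exon bases on the same strand with another gene at 0.5 FPKM or more. Such a partner was present for 104 of the 283 genes past 2-fold (36.7%). Put the other way, 10.4% of the genes with a partner and 1.58% of the 11296 genes without one were past 2-fold. When the FPKM of a gene and its partners were added, 91 of the 104 genes (87.5%) were no longer past 2-fold, and for 70 of them the sum was within 0.5 on the log2 scale. How the reads of shared exons were divided was set by the authors' quantification and was not tested.

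The locus of CSNK2B, the regulatory subunit of the kinase CK2, shows the pattern. CSNK2B (chr6:31633004-31638120, plus strand, GRCh37) was at 50.7 FPKM in control cells and 20.9 on knockdown. AL662899, which shares 675 exon bases with it, was at 1.99 and 30.1. The summed FPKM of AL662899 and its partners was 53.9 and 52.2. STBD1, a glycogen-binding protein of autophagy (chr4:77227886-77232283, plus strand), was at 10.1 and 2.20 while its readthrough partner FAM47E-STBD1 was at 0.567 and 7.88, so that the gene rows differed far more than their sum of 10.6 and 10.1.

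Rows of opposite direction were seen in other loci too. TMEM189-UBE2V1, a readthrough of 2 genes, was at 38.0 FPKM in control cells and listed at 0 on knockdown, while UBE2V1, a cofactor of lysine-63 ubiquitin chains, was at 16.8 and 38.8. AP002990 was at 34.3 and 0.880 beside EEF1G, a subunit of elongation factor 1, at 349.2 and 389.7. ATP6V1G2-DDX39B was at 16.6 and 2.89 beside the export helicase DDX39B at 16.5 and 24.1. ZNF358 was at 10.9 and 3.93 with AC008878 listed at 0 and at 7.02. RNF31, the catalytic subunit of the linear ubiquitin ligase, was at 6.76 and 2.03 with AL136295 at 2.70 and 7.51. Summed with their partners, these 5 genes differed by -0.32 to 0.03. AC138811 had no such counterpart. It was listed at 0 in control and stood at 27.3 FPKM in knockdown cells, while its partners RPS15A, a ribosomal protein, and ARL6IP1 were at 44 and 42.4 and at 36.7 and 39.1, and the sum was 80.7 and 108.8.

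In 13 of the 104 genes the sum was still past 2-fold. TOMM6, a small subunit of the import channel of the mitochondrial outer membrane (chr6:41755400-41757636, plus strand), was at 127.6 FPKM in control cells and 12.2 on knockdown, 10.4-fold lower. Its partner AL365205, with 637 shared exon bases, was at 3.81 and 17, and both together were at 131.4 and 29.2. AL365205 is counted among the 13 with a sum that was lower, not higher. LEPROT, an endosomal protein whose gene shares its first exons with the leptin receptor gene LEPR, was at 14.7 and 2.86, and with LEPR at 15.6 and 4.23. TGIF2, a repressor of TGF-beta responses, was at 11.3 and 4.40, and TGIF2-RAB5IF, its readthrough, at 18.4 and 6.27. Added together they were at 29.7 and 10.7. TGIF2-RAB5IF is not among the 13, because it also shares exons with RAB5IF, at 58.8 and 63.0. With both partners its sum was 88.6 and 73.7, within 2-fold. HIGD1A, a hypoxia-induced mitochondrial protein, was at 18.3 and 37.9, and with its partner at 18.7 and 38.5.

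**Figure D3:**
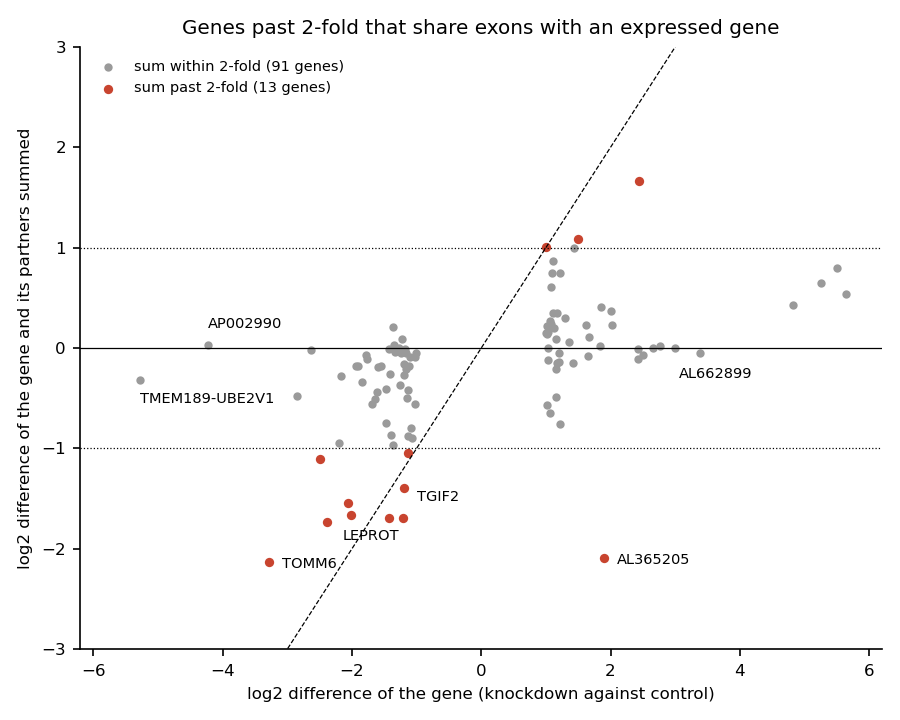
log2 difference of each of the 104 genes past 2-fold that share same-strand exons with an expressed gene (x) against the difference of the gene and its partners summed (y), knockdown against control. The 91 grey points lie within 2-fold after summing, and the 13 red points, TOMM6, LEPROT and TGIF2 among them, do not; the dashed line marks equal values.

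Outside such loci, 106 protein-coding genes were past 2-fold, 52 higher and 54 lower, with CCDC137 counted among the lower. An expressed gene overlapped 26 of them on the opposite strand (24.5%), beside 22.2% of all kept protein-coding genes. Over all protein-coding genes 1.66% were past 2-fold. These 106 genes came from unlike pathways and are grouped here by what they do.

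The largest difference among the higher of these genes was in DAG1. It encodes dystroglycan, the receptor that ties laminin of the matrix to the cytoskeleton (chr3:49506146-49573051, plus strand, GRCh37). DAG1 was at 6.25 FPKM in control cells and 45.9 on knockdown, 7.34-fold higher. Of the 29 kept genes of dystroglycan and its glycosylation, DAG1 included, 13 were higher and 16 lower, with a median of -0.01. TGOLN2, a cargo receptor of the trans-Golgi network (chr2:85545150-85555374, minus strand), was at 14.6 and 71.5, 4.89-fold higher. Other genes of the cell surface and the secretory pathway were higher by less. M6PR, which carries lysosomal enzymes from the same compartment, was at 24.4 and 53.2, and MOGS, the glucosidase that begins trimming of N-linked sugars, at 6.65 and 23.7. LRRC8D, a subunit of the volume-regulated anion channel, was at 3.4 and 10.5, and LY6E, a GPI-anchored surface protein, at 4.00 and 12.3.

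Among endosome genes single members were lower, while the list was close to all genes. RAB5B, a GTPase of early endosomes (chr12:56367697-56390467, plus strand), was at 16.2 FPKM in control cells and 2.25 on knockdown, 7.18-fold lower. RAB8B, of exocytic traffic, was at 6.47 and 2.68. Within 2-fold, RAB5C was at 89.0 and 44.7, RAB7A at 37.6 and 21.3 and SNX3 at 75.3 and 112. Of 59 kept genes of the early endosome list 25 were higher and 34 lower, with 3 past 2-fold, all lower (5.08%, beside 2.3% of all kept genes), and a median of -0.02 beside -0.01. PPT1, a lysosomal thioesterase that removes palmitate from proteins, was at 51.7 and 22.7, whereas the 64 kept lysosome genes were divided into 32 higher and 32 lower.

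Among genes of cell death and survival, BCL2L1, which encodes the anti-apoptotic BCL-XL (chr20:30252255-30311792, minus strand), was at 23.3 FPKM in control cells and 93.3 on knockdown, 4.00-fold higher. BIRC2, which encodes the ubiquitin ligase cIAP1, was at 22.3 and 10.02, and BIRC3, its paralog, at 12.01 and 20.1. XIAP was at 2.56 and 1.64, and CFLAR, an inhibitor of caspase-8, at 4.60 and 2.83. The 49 kept p53 and apoptosis genes were balanced, with 24 higher, 25 lower and a median of -0.02.

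Enzymes and transporters with large differences went both ways. GLO1, which detoxifies methylglyoxal from glycolysis (chr6:38643701-38670921, minus strand), was at 24.3 FPKM in control cells and 76.9 on knockdown, 3.17-fold higher. GCH1, the first enzyme of tetrahydrobiopterin synthesis (chr14:55308726-55369544, minus strand), was at 33.9 and 7.59, 4.48-fold lower. SLC39A1, the zinc importer ZIP1 (chr1:153931575-153940660, minus strand), was at 64.6 and 13.7, 4.72-fold lower. HACD2, a dehydratase of very long chain fatty acid synthesis, was at 24.6 and 7.52, MSRB3, which repairs oxidised methionine, at 12.4 and 4.12, and SELENON, a selenoprotein of the endoplasmic reticulum, at 45.8 and 20.1. SLC52A2, a riboflavin transporter, was at 2.85 and 7.31, and SLC25A43, a mitochondrial carrier, at 4.87 and 10.9. Over the 165 kept solute carriers 63 were higher and 102 lower, with 2 higher and 1 lower past 2-fold and a median of -0.04. SLC1A5, the glutamine transporter, was at 158 and 105.1 among those within 2-fold.

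Of cytoskeleton genes, PFN1, which encodes the actin monomer binding protein profilin (chr17:4848947-4852356, minus strand), was at 222.7 FPKM in control cells and 610.1 on knockdown, 2.74-fold higher. TUBB6, a beta-tubulin, was at 6.16 and 14.3, and ARPC5, a subunit of the ARP2/3 actin nucleator, at 5.45 and 12.4. CFL2, which encodes a cofilin that severs actin filaments, was at 14.4 and 6.58, and PFN2, the profilin paralog, at 39.1 and 24.7. The list of 57 kept genes held 32 higher and 25 lower, with a median of 0.02.

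Ubiquitin ligases of the RING type had 4 of 62 kept members past 2-fold (6.45%, beside 2.3% of all kept genes), 1 higher and 3 lower. RNF185, of protein degradation at the endoplasmic reticulum, was at 14.7 FPKM in control cells and 3.51 on knockdown, and RNF4, which targets proteins bearing SUMO chains, at 14.4 and 4.13. RNF114 was at 4.64 and 12.3. RNF31 is the fourth and lies in one of the shared loci described above, where its sum with the partner differed by 0.03. The list as a whole had 25 higher and 37 lower members and a median of -0.03.

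Chromatin and transcription genes with large differences included CHAMP1, a zinc finger protein of heterochromatin and chromosome alignment (chr13:115079957-115103101, plus strand), at 10.02 FPKM in control cells and 1.2 on knockdown, 8.33-fold lower. BANF1, which binds chromatin to the nuclear lamina, was at 72.6 and 31.6, and NRM, a protein of the inner nuclear membrane, at 1.74 and 8.84. DNMT3B and DNMT3A, the de novo DNA methyltransferases, were at 3.13 and 4.42 and at 1.57 and 2.32. MAFK, a small MAF partner of NRF2, was at 41.4 and 14.1, and MED18, a Mediator subunit, at 8.54 and 1.92. Besides CHAMP1, 0 of the 28 kept heterochromatin factors and 0 of the 41 kept Polycomb and Trithorax factors were past 2-fold. Of 329 kept zinc finger genes 7 were higher and 6 lower past 2-fold (3.95%, beside 2.3% of all kept genes), with a median of -0.02. ZNF672 was at 1.85 and 8.38, ZNF664 at 11.2 and 36.8, ZNF628 at 7.20 and 1.28, and ZNF260 at 3.92 and 0.779.

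**Figure D4:**
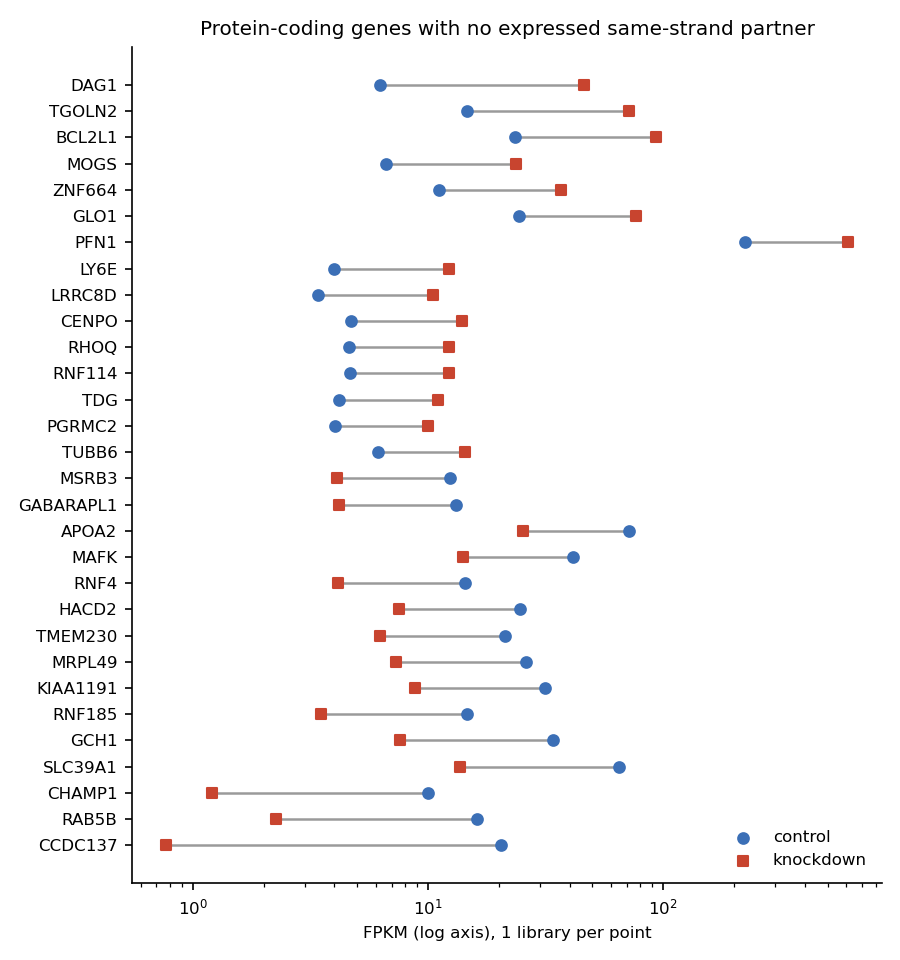
FPKM in control (blue circles) and knockdown cells (red squares), on a log axis, for the 15 highest and 15 lowest protein-coding genes at 10 FPKM or more in either library that had no expressed same-strand partner. The distance between the points runs from 26.5-fold lower at CCDC137 to 7.34-fold higher at DAG1, with PFN1 at the highest level in both libraries.

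A second kind of pattern was a small difference shared by many genes of a list, in which few or no members were past 2-fold. For these, the count of higher and lower members and the median are set beside all 12300 genes, of which 5876 (47.8%) were higher and 6424 lower, with a median of -0.01. Across the 55 lists, which held 2904 different kept genes, 20 medians were above 0 and 35 below, and 58 members (of 2904) were past 2-fold. Members of 1 pathway share regulators and are not independent, so that these counts describe the libraries only.

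Cell division genes were mostly higher. Of 86 kept genes of G2/M and mitosis 69 were higher (80.2%), with a median of 0.10, and 1 was past 2-fold. That gene was CENPO, of the centromere, at 4.72 FPKM in control cells and 14.0 on knockdown. CDC25B, a phosphatase that opens mitosis, was at 9.32 and 15.7, and ZWINT, of the kinetochore, at 10.8 and 17.6, while CKAP2, a spindle protein, was at 14.5 and 9.05. DNA replication and G1/S genes were less one-sided, with 51 of 81 higher and a median of 0.04. There ASF1B, a histone chaperone, was at 7.85 and 10.7, and POLD3, a polymerase subunit, at 6 and 3.86.

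DNA repair genes had 55 of 81 members higher and a median of 0.05. TDG, a glycosylase of base excision repair, was at 4.20 FPKM in control cells and 11 on knockdown, and ERCC5, an endonuclease of nucleotide excision repair, at 1.09 and 3.42. ERCC5 shares 3641 exon bases with its readthrough BIVM-ERCC5, which was at 7.58 and 6.98. MSH6, which recognises mismatches, was at 16.4 and 6.48, and APEX1, the main abasic site endonuclease, at 34 and 22.1.

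As lists, genes for RNA processing differed little. Of 133 kept splicing and RNA-binding motif genes 82 were higher, with a median of 0.04. RBMS2 was at 12.8 FPKM in control cells and 4.97 on knockdown and RBM3, a cold-inducible protein, at 21.2 and 32.5. HNRNPA1L2, at 5.10 and 13.2, is a near copy of HNRNPA1, so that its reads may be shared. Of 73 kept mRNA export factors and nucleoporins 36 were higher and 37 lower. NUP50 was at 2.73 and 6.87, NUP62 at 9.47 and 17.7 and IPO4, an importin that shares exons with another gene, at 12.7 and 5.03. The 89 ribosome biogenesis genes were divided into 41 higher and 48 lower, with a median of -0.02. NCL, the abundant nucleolar protein nucleolin, was at 128.1 and 90.0. The 36 kept genes of the microRNA machinery were divided into 18 and 18, with DGCR8 at 2.26 and 2.25, DROSHA at 6.12 and 6.96, and LIN28B, which blocks let-7 maturation, at 22.7 and 11.1.

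Translation lists had medians from -0.05 to -0.01, beside -0.01 for all genes. Of 82 kept cytosolic ribosomal protein genes 56 were lower, with a median of -0.05. RPL32 was at 100.9 FPKM in control cells and 66.0 on knockdown, RPL7A at 342.8 and 254.3, and RPS3A at 155.4 and 231.7. The 79 mitochondrial ribosomal protein genes were near balance at 37 higher and 42 lower, and 3 were past 2-fold, all lower (3.8%, beside 2.3% of all kept genes). These were MRPL49 (26.2 and 7.30), MRPL30 (13.7 and 5.92) and MRPL53 (18.9 and 6.70), of which MRPL30 and MRPL53 share exons with another expressed gene. Summed with that gene they differed by -0.79 and -0.97, within 2-fold. Of 40 aminoacyl-tRNA synthetase genes 25 were lower, with SARS2 at 9.93 and 6.71.

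Proteins of mitochondria are encoded in their own genome and in the nucleus. The 13 protein-coding genes of the mitochondrial genome had 10 higher members and a median of 0.10, with MT-ND6 at 1853 FPKM in control cells and 2142 on knockdown. The 93 nuclear genes of oxidative phosphorylation had 48 higher and 45 lower members and a median of 0.00, with COX7B at 19.3 and 10.2, NDUFV1 at 14.4 and 7.79 and COX4I1 at 19.2 and 31.0. Of 45 genes of mitochondrial protein import 18 were higher and 27 lower, and TOMM6 was the 1 past 2-fold. TOMM40L was at 6.88 and 3.22 and TIMMDC1 at 17.7 and 9.38, whereas TOMM40, the channel itself, was at 41.3 and 57.4 and TOMM5 at 16.5 and 25.9.

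In 3 lists of signal-responsive transcripts most members were lower. YAP and TEAD targets had 20 of 24 members lower and a median of -0.14. TEAD1, the DNA-binding partner of YAP and itself in the list, was at 12.9 FPKM in control cells and 5.38 on knockdown, and GADD45A was at 5.86 and 3.82, AXL at 18.1 and 14.2 and AMOTL2 at 15.3 and 12.1. Immediate early and AP-1 genes had 19 of 25 lower and a median of -0.12. FOSL1, an AP-1 subunit, was at 14.03 and 5.12, KLF6 at 16.7 and 7.69 and EGR1 at 6.02 and 3.75, while IER2 was at 9.79 and 18.9. Ras and MAPK feedback genes had 23 of 33 lower and a median of -0.09, with SPRY1 at 6.21 and 4.06 and DUSP5 at 70.3 and 54.3. Other signalling lists lay nearer to all genes, with 19 higher and 22 lower of 41 NF-kB genes and cytokines and 19 and 19 of 38 TGF-beta and BMP genes. Wnt and beta-catenin genes (17 of 27 lower) and growth factor receptors and ligands (21 of 35 lower) each had a median of -0.04. Retinoic acid receptors and response genes had 8 of 13 higher and a median of 0.01. MAPK14, which encodes p38 alpha and is in none of the lists just named, was at 10.06 and 4.49. In the Huh-7 pair, with CCDC137 overexpressed, YAP and TEAD targets also had a median below 0, at -0.11. There it was -0.005 for immediate early and AP-1 genes and 0.06 for Ras and MAPK feedback genes, beside 0.005 for all genes.

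Stress and nutrient lists leaned lower as well. Genes of ATF4 and the unfolded protein response had 28 of 38 lower and a median of -0.10, with the ligase SYVN1 at 18.6 FPKM in control cells and 13.3 on knockdown. NRF2 targets and iron and metal genes had 28 of 44 lower and a median of -0.09. Among them FTH1, the ferritin heavy chain, was at 431.7 and 289.5, and HFE, a regulator of hepcidin, at 3.11 and 5.77. Hypoxia and glycolysis genes had 34 of 45 lower and a median of -0.05, cholesterol and fatty acid synthesis 35 of 52 and -0.05, and ABC transporters 20 of 24 and -0.09, with ABCG2 at 9.53 and 7.90. Of 48 autophagy genes 32 were lower, with GABARAPL1 at 13.2 and 4.19 and its paralog GABARAP at 26.6 and 49.3.

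Lists of immune and liver functions went both ways. Interferon response and HLA class I genes had 35 of 50 members higher and a median of 0.10. HLA-C was at 14.6 FPKM in control cells and 29.9 on knockdown, and CANX, a chaperone of class I assembly, at 153.0 and 197. HLA genes are alike in sequence, so that their reads may be shared. Plasma carriers and acute phase proteins had 19 of 29 higher and a median of 0.11, with AFP at 90.8 and 139.1 and RBP4 at 44 and 63.1 but SERPINA1 at 589.2 and 484.4. Cytochromes P450 and conjugating enzymes had 29 of 49 higher and a median of 0.07, with NAT8 at 12.3 and 6.47 and GSTA4 at 9.16 and 13.6. Of 36 complement and coagulation genes 21 were higher, with a median of 0.07, while of 57 genes of amino acid, urea and fuel metabolism 35 were lower, with a median of -0.03. Of 28 liver transcription factors 13 were higher and 15 lower. HNF4A was at 9.05 and 11.6, and HHEX at 22.8 and 14.6. Of 24 kept apolipoprotein and lipoprotein genes 10 were higher and 14 lower, with a median of -0.07, and APOA2 was the only 1 past 2-fold, at 71.7 and 25.4.

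**Figure D5:**
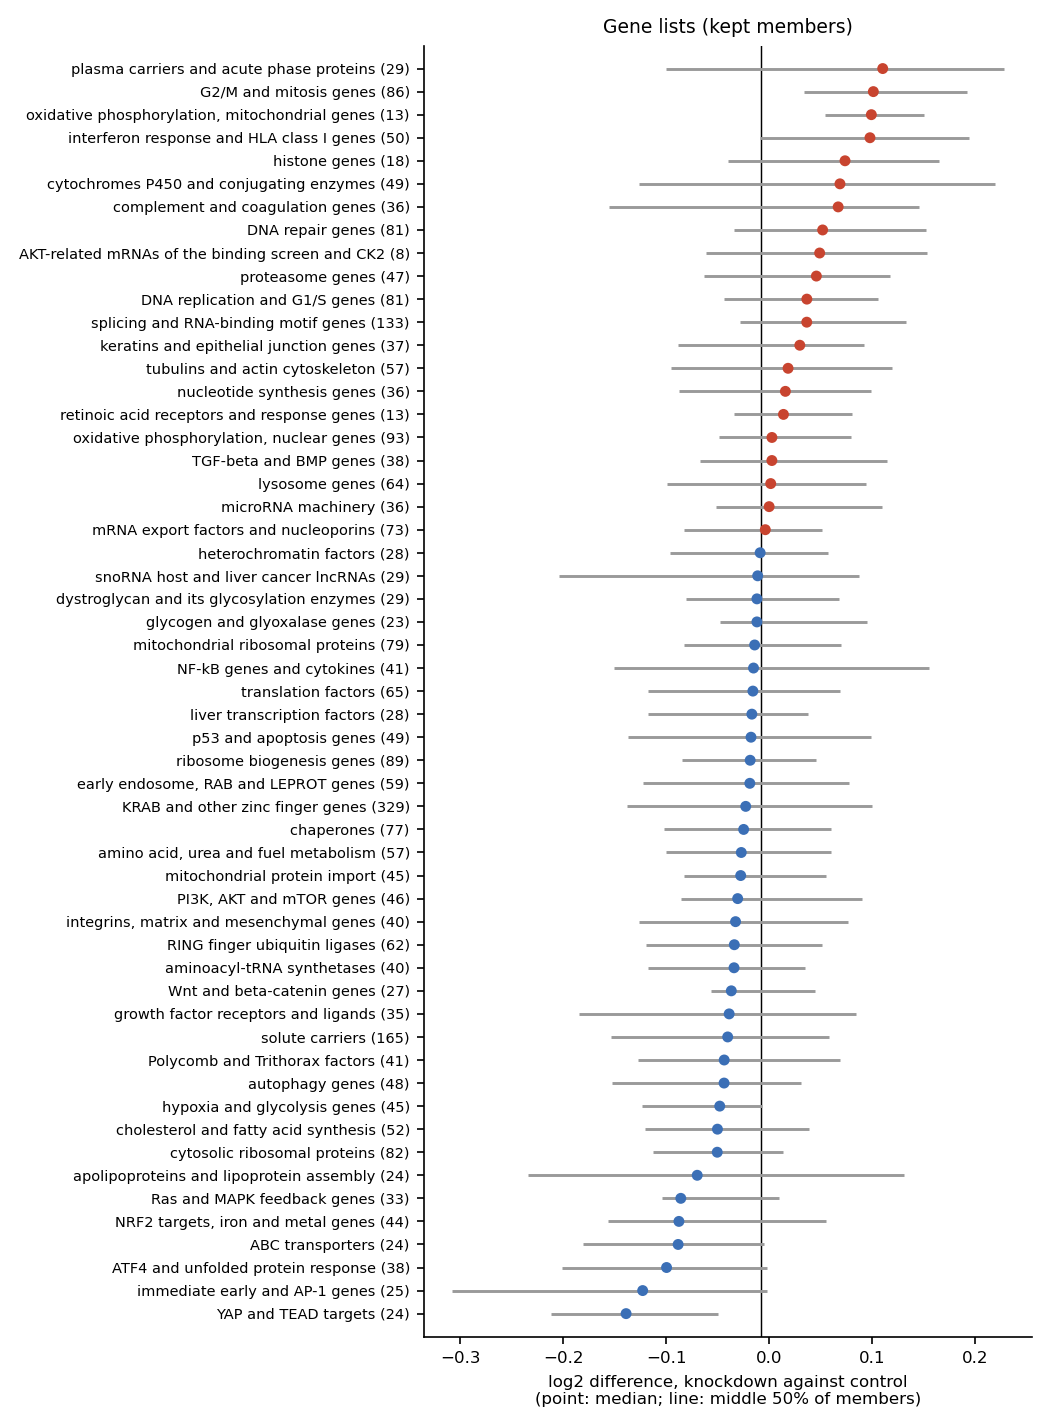
Median log2 difference (points) and middle 50% of the members (lines) for each of the 55 gene lists, with the number of kept members in brackets, knockdown against control. The vertical line is the median of all kept genes at -0.01; medians run from -0.14 for YAP and TEAD targets to 0.11 for plasma carriers and acute phase proteins.

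The study links CCDC137 to AKT phosphorylation, which mRNA levels do not measure. The mRNAs of AKT pathway components were close to even. Of 46 kept PI3K, AKT and mTOR genes 21 were higher and 25 lower, with a median of -0.03 and 0 past 2-fold. PIK3R2, a regulatory subunit of PI3K, was at 8.73 FPKM in control cells and 6.55 on knockdown, and INPPL1, a phosphatase of its product, at 17.6 and 14.1. FOXM1 was at 23.3 and 24.8, AIMP2 at 16.2 and 18.6, LASP1 at 54.8 and 55.1 and FLOT2 at 29.1 and 32.2.

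The most abundant RNAs differed little in fold but far in FPKM. Genes of the mitochondrial genome held 30.1% of all FPKM in control and 31.5% in knockdown cells. Of the 10 largest gains, 7 came from this genome, led by MT-CO2 (13510 and 14558 FPKM) and the large ribosomal RNA MT-RNR2 (6475 and 7415). PFN1 was the only gene of the nuclear chromosomes in the annotation among the 10, with a gain of 387.4 FPKM. The other 2 were copies of the noncoding locus FP236383, at 307.4 and 942.3 and at 202.4 and 579.6. The 11 kept rows of FP236383 and FP671120 together summed to 663.9 FPKM in control cells and 1953 on knockdown. RN7SL1 and RN7SL2, the RNA of the signal recognition particle, were at 11.9 and 29.03 and at 10.9 and 27.4. The largest losses were in FTL (4542 and 4278), TMSB10 (2511 and 2307) and EEF1A1 (1650 and 1503), which encode ferritin light chain, thymosin beta 10 and elongation factor 1 alpha. TOMM6 was the only 1 of the 10 largest losses past 2-fold. Ribosomal and signal recognition particle RNAs lack a long poly(A) tail, and the part of poly(A) selection in their levels was not tested. With genes of the mitochondrial genome left out, 149 genes were higher and 135 lower past 2-fold.

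No chromosome stood apart. The median difference of kept genes on the 23 nuclear chromosomes ran from -0.03 on chromosome 19 to 0.01, and CCDC137's own chromosome 17 was within this range. Short RNA genes were past 2-fold more often than protein-coding genes, at 16 of 57 kept snoRNA genes (28.1%) and 4 of 15 kept miRNA genes (26.7%). SNORD5 was at 10.5 FPKM in control cells and 4.68 on knockdown, and SNORD58B, inside RPL17, at 0.141 and 42.6. Mature forms of these RNAs are shorter than the fragments of such a library, and their values rest on few bases.

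In the Huh-7 pair, where CCDC137 was raised rather than lowered, 2.15% of 12255 kept genes were past 2-fold. The pairs share no library. Of the 10698 genes kept in both, 210 were past 2-fold on knockdown and 191 on overexpression, and 54 were in both sets (25.7% and 28.3%). They were higher in both in 15 cases and lower in both in 17. A further 8 were higher on knockdown and lower on overexpression, and 14 the reverse, CCDC137 included. Rows that share exons, such as CSNK2B with AL662899 and STBD1 with FAM47E-STBD1, were among the 54. So were short RNA genes such as SNORA6 and SNORD24. DAG1, higher on knockdown, was at 33.3 FPKM with the empty vector and 3.13 with overexpression, and GLO1 likewise at 76.7 and 21.9. CHAMP1, LEPROT, TEAD1, GABARAPL1 and RAB8B were lower on knockdown and higher on overexpression. In that line TEAD1 was at 3.05 and 8.71 FPKM and GABARAPL1 at 3.35 and 15.1. In contrast, RNF185 (24.7 and 5.05), RNF4 (15.1 and 5.27), FOSL1 (6.22 and 2.06), MRPL49 (19.1 and 7.95) and MAPK14 (12.9 and 4.89) were lower in both comparisons, and ZNF672 (1.24 and 6.03), BTBD3 (1.23 and 6.28) and RHOQ (1.18 and 6.06) higher in both. Several large differences of the knockdown had no counterpart in Huh-7 cells. TOMM6 was there at 83.6 and 79.8, BCL2L1 at 74.5 and 85.0, PFN1 at 212.4 and 187, TGOLN2 at 6.99 and 6.09, and SLC39A1 at 45.3 and 54.5.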

How the data were processed

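The values were FPKM per gene and library, deposited by the authors, in which 0.0001 stands for 0 and was set to 0. Per the labels, fragmented mRNA was reverse-transcribed, and reads were handled with StringTie 1.3.4d, HISAT2 2.0.4 and cutadapt, in the submitters' notes on processing. Which genome build was used, and whether strand entered the quantification, is not given in the sources used here. Also in the authors' deposited tables are fold changes, their log2, p-values, q-values and calls for each comparison, none of them used. Differences were computed in Python with numpy and pandas. Gene IDs matched GENCODE 44 lifted to GRCh37 for 99.1% of kept genes. Guides were taken from the study's oligo list and promoters from RefSeq (GRCh38.p14). Low FPKM values point to a depth of the knockdown library 1.17 times that of the control, an estimate from 98 of 2399 genes below 0.1 FPKM. Libraries were grouped by their titles. With 1 library per group no test was possible. The calculation was tested on simulated data.

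Named were CCDC137, the 15 highest and 15 lowest protein-coding genes at 5 FPKM or more, the 4 members of each list with the largest difference and all members past 2-fold, and the 10 largest gains and losses in FPKM. Also named were 5 genes of the study, the 3 nearest genes on either side of CCDC137, genes with a guide match in the promoter, and overlapping partners. Other genes past 2-fold, the short RNA genes and the genes shown for Huh-7 cells were chosen after their values were seen. Members and lists were chosen with earlier results of these data known, and 3 lists were adjusted in their symbols or name after the files were seen. Some genes that the rule names are not reported here. The alternatives varied the pseudocount, the filter, the scaling and the set of genes.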

Additional observations from a re-analysis of the deposited data

How the results depend on the processing

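CCDC137 stayed lower under all 9 alternatives that gave it a value, at -2.14 to -4.56. The counts past 2-fold, 148 higher and 135 lower, depended on the treatment of low values. They were 268 and 266 with a pseudocount of 0.1 FPKM, 208 and 204 with 0.5, and 31 and 39 with 5. At 5 FPKM or more in either library they were 73 and 84, and at 10 or more 40 and 55. With each library rescaled to the same sum (1000000) they were 579 and 528. There a pseudocount of 1 weighs less, and the filter at 1 also keeps more weakly expressed genes. Summing overlapping genes of 1 strand left 97 and 83 loci, and protein-coding genes alone gave 83 and 92. The 3 other alternatives left both counts within 3 of the first values. Of 84 named genes past 2-fold, 40 stayed past it under every alternative that kept them, and 0 changed sign. The medians of 34 of 55 lists kept their sign throughout. Some lists described with more members on 1 side did not. The median of solute carriers ran from -0.07 to 0.00. Those of cytochromes P450 and conjugating enzymes and of complement and coagulation genes ran from 0.00 to 0.08. That of apolipoprotein and lipoprotein genes ran from -0.12 to 0.01. No paired analysis was possible because each group held 1 library.

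Without replicates, differences between the cultures, the lentiviral lines and the libraries cannot be told apart from the knockdown. The number of reads is unknown, and low values carry no counting error.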

Other observations

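The deposited tables also carry Gene Ontology terms, of which 917 had at least 20 kept genes. The terms below stood at either end of the medians and were chosen after their values were seen, so they are descriptions only. "Defense response to bacterium" had 18 of 21 genes higher on knockdown and a median of 0.17. Among its genes were SLPI, a secreted protease inhibitor, at 13.1 FPKM in control cells and 23.0 on knockdown, LYZ at 128.7 and 206.3, and CCL20, a chemokine, at 47.0 and 52.5. "Base-excision repair" had 16 of 21 higher and a median of 0.09, with POLB, its gap-filling polymerase, at 5.02 and 6.34, FEN1, a flap endonuclease, at 30.3 and 35.9, and UNG, the uracil glycosylase, at 16.2 and 17.5.

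"Brush border membrane" had 16 of 20 genes lower and a median of -0.13, with the folate transporters SLC19A1 at 5.04 and 2.88 FPKM and SLC46A1 at 5.08 and 3.49. Its largest difference was in the other direction, in LIMA1, an actin-binding protein, at 5.56 and 9.93. "Integrator complex", which in the table joins subunits of the complex with CT45A cancer-testis genes, had 15 of 22 lower and a median of -0.10. Its subunits INTS12, INTS14 and INTS1 were at 7.55 and 6.11, at 11.1 and 9.17 and at 20.2 and 17.3, and INTS2 at 4.45 and 4.83. In Huh-7 cells the median of the bacterial defense genes was -0.06 and that of the Integrator genes was 0.00.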
